A study of Mus musculus with 18 samples.

Results

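The genes described are 10 members of the circadian clock and its direct output in mouse skeletal muscle, namely Arntl, Clock, Per1, Per2, Per3, Nr1d1, Ciart, Dbp, Hlf and Tef. They were taken as a list of symbols, each matched to its Ensembl identifier, and make up 10 of the 41388 genes counted in every library. All 10 passed the filter on low counts in every comparison. The data were 18 RNA-seq libraries of rRNA-depleted total RNA from the gastrocnemius, a calf muscle made mainly of fast fibres, and the soleus, its neighbour, which is richer in slow fibres. Knockout libraries came from mice described as Site-1 Protease floxed with HSACre+, a Cre recombinase that the human skeletal actin promoter drives in muscle fibres, so that other cells of the muscle keep the gene. Control libraries came from Site-1 Protease floxed mice without Cre, so every mouse carried the floxed allele and no Cre-only control was among the libraries. All mice were 12 weeks old, ate chow and were fasted for 4 h before harvest. The library titles gave 4 knockout and 5 control libraries of the soleus and 4 knockout and 5 control libraries of the gastrocnemius. No label states that each library is a separate mouse. The title numbers of soleus and gastrocnemius libraries of the same genotype differ by 33 throughout, but no label says that this marks a shared mouse. The libraries were therefore treated as independent, and p-values measure only the spread between them. The sources used here do not give the hour of harvest, on which the level of a rhythmic gene depends.

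The circadian clock is a feedback loop of transcription that runs in nearly every cell, muscle fibres included. BMAL1 (the product of Arntl) and CLOCK bind E-boxes as a pair and switch on the Per genes, Nr1d1, Ciart and Dbp, while PER proteins and CIART act back on that pair as repressors. Nr1d1 encodes REV-ERB-alpha, which represses Arntl through ROR elements that the ROR activators also bind, and DBP, HLF and TEF, related factors of the PAR bZIP family, carry the rhythm to output genes through D-boxes.

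Promoter windows are shown for Ciart, Hlf and Per3, whose levels differed between groups, and for Arntl, the gene REV-ERB-alpha represses. The letters of the clock motifs are in capitals. Each window runs from 250 bases before to 50 bases after an annotated start site, is written 5′ to 3′ on the strand of the gene, and comes from RefSeq on GRCm38.p6. The motifs searched on both strands were the E-box CACGTG, the D-box TTATGTAA or TTACGTAA, and the ROR/REV-ERB element TAGGTCA or TGGGTCA. Ciart (chr3:95882179-95882478) is shown for its 3 E-boxes, Hlf (chr11:90390868-90391167) because it held none of the motifs, Per3 (chr4:151044616-151044915) for its 2 D-boxes, and the second annotated Arntl window (chr7:113207261-113207560) for its ROR/REV-ERB element.
Ciart: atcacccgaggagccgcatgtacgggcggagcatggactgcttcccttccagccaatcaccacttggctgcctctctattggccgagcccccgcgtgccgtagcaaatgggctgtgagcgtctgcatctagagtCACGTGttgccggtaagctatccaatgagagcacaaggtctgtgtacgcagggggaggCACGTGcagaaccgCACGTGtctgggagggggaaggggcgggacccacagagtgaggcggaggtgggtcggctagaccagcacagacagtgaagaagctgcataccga
Hlf: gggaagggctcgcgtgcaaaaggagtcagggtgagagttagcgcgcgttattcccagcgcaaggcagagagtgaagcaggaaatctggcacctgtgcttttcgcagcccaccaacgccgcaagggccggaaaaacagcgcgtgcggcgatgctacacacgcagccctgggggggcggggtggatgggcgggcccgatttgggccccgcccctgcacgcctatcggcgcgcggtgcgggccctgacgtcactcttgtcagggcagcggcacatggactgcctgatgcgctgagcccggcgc
Per3: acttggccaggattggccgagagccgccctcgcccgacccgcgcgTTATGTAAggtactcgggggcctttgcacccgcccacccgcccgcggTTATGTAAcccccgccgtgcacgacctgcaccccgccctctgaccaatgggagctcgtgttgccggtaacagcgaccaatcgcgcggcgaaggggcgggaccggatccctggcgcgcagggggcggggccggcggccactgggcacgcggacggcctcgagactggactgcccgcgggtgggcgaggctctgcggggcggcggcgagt
Arntl: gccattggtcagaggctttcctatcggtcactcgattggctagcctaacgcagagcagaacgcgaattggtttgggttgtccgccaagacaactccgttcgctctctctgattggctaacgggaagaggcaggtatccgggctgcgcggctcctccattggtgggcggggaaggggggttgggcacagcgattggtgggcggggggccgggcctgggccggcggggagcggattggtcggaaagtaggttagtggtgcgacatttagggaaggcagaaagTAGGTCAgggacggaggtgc

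The E-boxes of Ciart began 116, 58 and 44 bases before the start site, and the D-boxes of Per3 began 205 and 158 bases before it. The element in Arntl began 30 bases after the start site of its second annotated window, and its first held none of the motifs. Of 32851 windows in the same table, 7.15% held at least 1 E-box and 29 (0.0883%) held 3 or more. At least 1 D-box stood in 1.06% of the windows, and 2 or more stood in 8 of them (0.0244%). The ROR/REV-ERB element was in 6.45%. Per1 held 1 E-box in the first of its 2 annotated windows, 166 bases before the start site, and none of the motifs in the other. Tef held 1 E-box in each of its annotated windows, 127 and 138 bases before the start. None of these letters stood in the windows of Clock, Nr1d1 or Dbp. No window was available for Per2, so its promoter was not searched. A match is a run of letters and not a measured binding site. Only the exact letters given were searched, so a window without a match may hold other forms of these motifs.

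**Figure D1:**
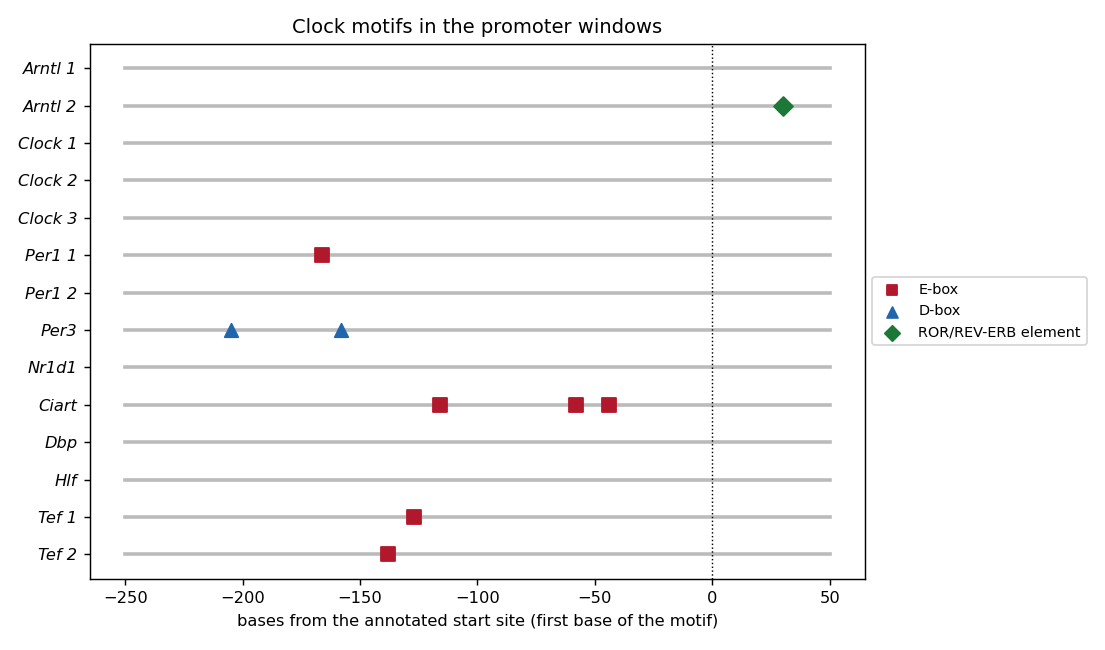
Positions of the clock motifs in the promoter windows of 9 members (rows, numbered where a gene has several annotated start sites), in bases from the start site (x axis). Squares are E-boxes, triangles D-boxes and the diamond a ROR/REV-ERB element; the 3 E-boxes of Ciart lie between 116 and 44 bases before its start.

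Library totals ran from 39.0 to 78.2 M counts, and each member had between 163 and 17143 reads in a library. Mbtps1, the gene of Site-1 Protease, had 31.0 to 36.3 CPM (counts per M library counts) in soleus knockouts and 30.5 to 34.4 CPM in soleus controls, and 34.7 to 42.8 CPM in gastrocnemius knockouts and 29.6 to 34.9 CPM in gastrocnemius controls. The sources used here do not name the deleted part of the gene, and a count over all exons cannot resolve it, so this level does not check the labels, on which every direction below rests. The 7 slow-fibre markers were all higher and the 7 fast-fibre markers all lower in soleus than in gastrocnemius, in knockouts and in controls alike.

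Levels of different genes were compared per length, as CPM per kilobase of exon. Nr1d1 had the highest level of the 10 in all 4 groups, at 48.4 ± 7.59 CPM per kilobase in soleus knockouts (SD, n = 4), 57.6 ± 17.9 in soleus controls (SD, n = 5), 48.3 ± 4.89 in gastrocnemius knockouts (SD, n = 4) and 60.9 ± 17.8 in gastrocnemius controls (SD, n = 5). Per1, Tef and Dbp followed, with group means between 17.3 and 35.7 CPM per kilobase. The other 6 members lay between 1.62 and 6.64 CPM per kilobase, below Dbp by more than the SDs in every group. The lowest mean was that of Hlf in both soleus groups, at 1.62 ± 0.497 CPM per kilobase in knockouts and 1.96 ± 0.175 in controls, and that of Arntl in both gastrocnemius groups, at 2.48 ± 0.428 in knockouts and 2.98 ± 0.392 in controls. Several neighbours in this order could not be separated by their SDs. In both soleus groups these included Tef and Dbp, Per3, Per2 and Clock, and Arntl and Hlf. Soleus knockouts added Per1 and Tef, and Ciart and Arntl. In gastrocnemius knockouts they included Per1 and Dbp, Per2, Clock and Per3, and Hlf, Ciart and Arntl. In gastrocnemius controls they included Per1 and Tef, Per2, Clock and Ciart, and Per3 with Hlf and with Arntl. The lowest place of Arntl (2.98 ± 0.392) was thus not resolved there from Per3 (3.74 ± 0.720).

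**Figure D2:**
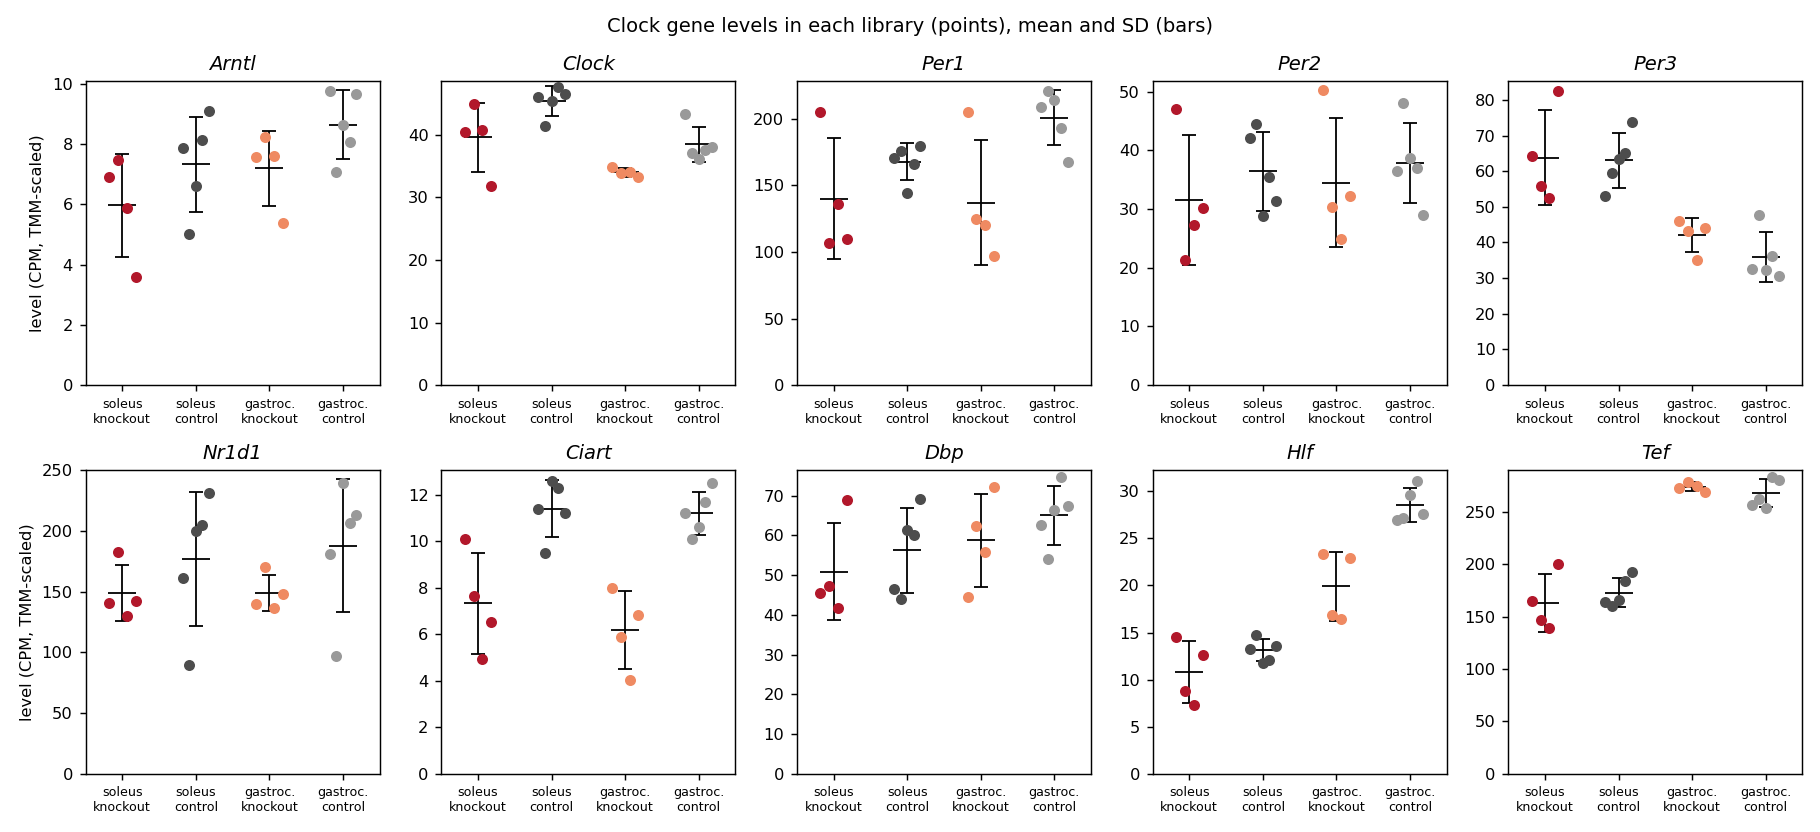
Level of each clock gene in each library (points; y axis, CPM scaled by TMM, a factor per library that evens out composition), with the group mean and SD (bars), for soleus knockout, soleus control, gastrocnemius knockout and gastrocnemius control from left to right. The 4 gastrocnemius knockouts lie below the 5 controls for Ciart (4.02 to 7.98 against 10.1 to 12.5 CPM), Hlf and Clock, and the soleus and gastrocnemius libraries lie apart for Per3, Hlf and Tef.

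In the gastrocnemius, Ciart and Hlf fell with the knockout and no member rose. Ciart, the BMAL1 and CLOCK repressor, was 1.81-fold lower, and Hlf, a PAR bZIP output factor, was 1.43-fold lower. These were 2 of 10 members called (edgeR quasi-likelihood test, Benjamini-Hochberg adjusted p below 0.05 over 16393 genes), where 2.01% of all genes were called lower and 1.77% higher, 3.78% in all. The median log2 fold change of the 10 members was -0.22, against 0.02 over all genes tested, and 8 of the 10 values were negative. All genes called were 290 higher and 329 lower with TMM scaling, 340 and 163 with library totals, and 318 and 236 with upper-quartile scaling.

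Ciart had 7.98, 5.86, 4.02 and 6.82 CPM in the gastrocnemius knockouts (libraries 2, 6, 7 and 9 in the titles) and 11.2, 10.1, 10.6, 11.7 and 12.5 CPM in the controls (libraries 1, 3, 4, 5 and 8). Every knockout library lay below every control. The log2 fold change was -0.86 (SE 0.16, edgeR adjusted p = 0.011), and it stayed below the threshold in the 6 other fits (highest adjusted p = 0.0143) and without each library in turn (highest adjusted p = 0.0486). In bulk muscle, fewer cells that express a gene and less RNA per cell cannot be told apart.

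Hlf had 23.3, 16.9, 16.4 and 22.9 CPM in the knockouts and 26.9, 27.2, 29.6, 31.1 and 27.6 CPM in the controls, again with no overlap. Its log2 fold change was -0.52 (SE 0.11, edgeR adjusted p = 0.0219). The call was lost when all 18 libraries shared 1 fit (adjusted p = 0.0707). Leaving out a library ended it for control 4 (0.0534), for control 5 (0.0596) and for knockout 6 (0.0796), while the fold change kept its direction. The related Dbp had 44.5 to 72.2 CPM in knockouts and 54.1 to 74.7 CPM in controls (log2 fold change -0.14, SE 0.13, adjusted p = 0.607). Tef, also of the PAR bZIP family, had 269 to 279 CPM in knockouts and 254 to 283 CPM in controls, and its 95% interval for the log2 fold change ran only from -0.09 to 0.16.

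Of the activators, Clock had 34.9, 33.9, 34.0 and 33.2 CPM in the gastrocnemius knockouts and 43.4, 37.1, 36.2, 37.6 and 38.1 CPM in the controls. The groups did not overlap, but the difference was small (log2 fold change -0.18, SE 0.07) and was not called (edgeR adjusted p = 0.163). With Ciart and Hlf this made 3 of 10 members whose groups lay apart, where 4.61% of all genes lay apart with knockouts lower, 3.79% with knockouts higher and 8.41% in all. Arntl had 7.57, 8.24, 7.61 and 5.39 CPM in the knockouts and 9.78, 7.07, 8.64, 8.07 and 9.67 CPM in the controls (log2 fold change -0.27, SE 0.14, adjusted p = 0.312).

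Per1, which encodes a repressor of the loop and also responds to glucocorticoids, had 205, 125, 120 and 96.8 CPM in the gastrocnemius knockouts and 209, 221, 214, 193 and 168 CPM in the controls. Knockout library 2 lay among the controls and the other 3 knockouts below all of them. The log2 fold change of -0.56 (SE 0.20) was not called by edgeR (adjusted p = 0.181) and was called by DESeq2 (adjusted p = 0.0198). Without knockout 2 it was -0.82 (edgeR adjusted p = 6.22e-04). Per2 showed the same library apart, with 50.3 CPM in knockout 2 against 24.9 to 32.2 CPM in the other 3 knockouts and 28.9 to 48.0 CPM in controls. Its log2 fold change was -0.13 (SE 0.22, adjusted p = 0.814). Per3 had 35.1 to 45.9 CPM in knockouts and 30.7 to 47.7 CPM in controls, with a positive value (log2 fold change 0.23, SE 0.13, adjusted p = 0.382).

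Nr1d1, the REV-ERB-alpha gene, had 140, 170, 137 and 148 CPM in the gastrocnemius knockouts and 181, 96.8, 240, 207 and 213 CPM in the controls. Control 3 lay below all knockouts and the other 4 controls above them. The log2 fold change was -0.33 (SE 0.23, edgeR adjusted p = 0.518), and -0.49 without control 3 (adjusted p = 0.0161). Nr1d1 shares 263 exonic bases (8.55% of its exons) with Thra, a thyroid hormone receptor gene on the other strand, which had 58.8 ± 4.11 CPM in knockouts (SD, n = 4) and 73.6 ± 9.84 CPM in controls (SD, n = 5; log2 fold change -0.32, SE 0.09, adjusted p = 0.0702). The sources used here do not say whether the counting used strand, so reads over the shared bases are uncertain for both genes.

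In the soleus no member was called with the knockout by edgeR (0 of 10, where 0.0553% of all genes were called in either direction), and none by limma voom. DESeq2 called Ciart alone of the members (adjusted p = 0.0425), and 166 of all 18087 genes. An unadjusted edgeR p below 0.05 was seen for 2 members, Ciart and Clock, and for 1481 of all 18087 genes. No member had groups that lay apart, where 2.55% of all genes did. The median of the 10 log2 fold changes was -0.23, against -0.00 over all genes tested, and 9 of the 10 were negative.

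Ciart had 10.1, 7.66, 4.94 and 6.54 CPM in the soleus knockouts (libraries 35, 39, 40 and 42) and 11.4, 9.47, 12.6, 12.3 and 11.2 CPM in the controls (libraries 34, 36, 37, 38 and 41). Knockout 35 lay above control 36, and the other 3 knockouts lay below all controls. The log2 fold change was -0.64 (SE 0.17, unadjusted p = 0.00244, edgeR adjusted p = 0.293). Without knockout 35 it was -0.82, which passed (adjusted p = 0.0313).

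Per1 had 205, 107, 136 and 110 CPM in the soleus knockouts and 171, 176, 144, 166 and 180 CPM in the controls. Knockout 35 was higher than all controls and the other 3 knockouts were lower than all of them (log2 fold change -0.26, SE 0.17, edgeR adjusted p = 0.761). Per2 had 47.1 CPM in knockout 35, against 21.3 to 30.2 CPM in the other knockouts and 28.8 to 44.5 CPM in the controls. Hlf had 14.5, 8.82, 7.31 and 12.6 CPM in the knockouts and 13.3, 14.7, 11.8, 12.1 and 13.6 CPM in the controls, with knockouts 39 and 40 below all controls (log2 fold change -0.27, SE 0.17, adjusted p = 0.74). Clock had 40.5, 45.0, 40.8 and 31.9 CPM in knockouts and 46.1, 41.4, 45.5, 47.7 and 46.5 CPM in controls (log2 fold change -0.19, SE 0.09, adjusted p = 0.602). For Arntl, Per2, Per3, Nr1d1, Dbp and Tef the log2 fold changes lay between -0.29 and 0.03, with adjusted p from 0.785 to 0.976.

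**Figure D3:**
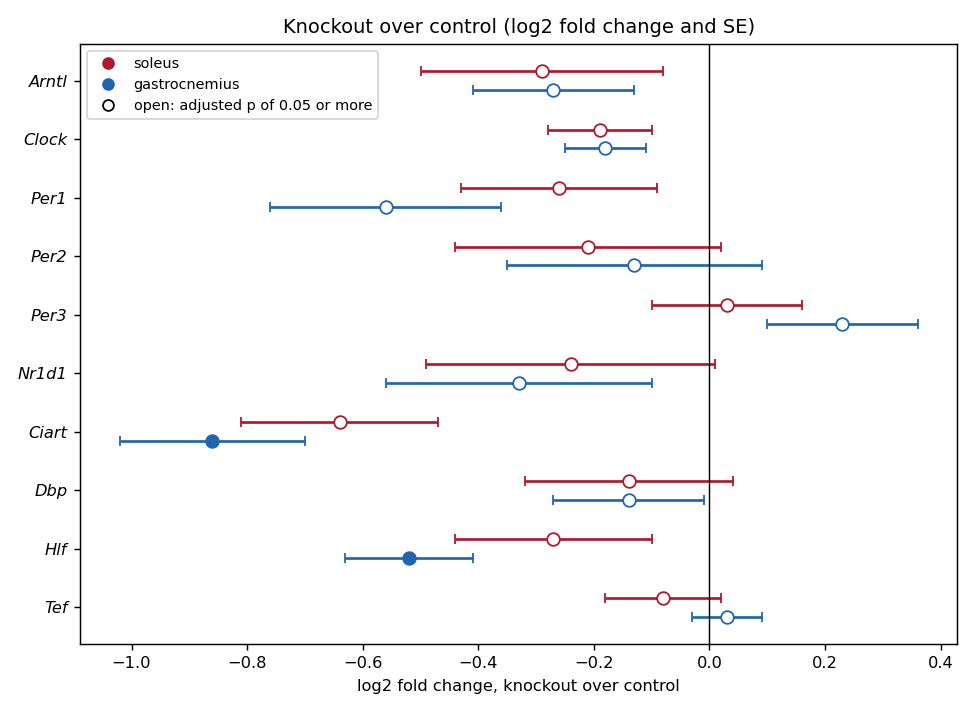
Log2 fold change of knockout over control (x axis) for the 10 clock genes, with the SE as bars, in soleus (upper mark of each pair) and gastrocnemius (lower mark); filled marks passed an adjusted p of 0.05. Only gastrocnemius Ciart (-0.86) and Hlf (-0.52) are filled, and Per3 in both muscles and Tef in gastrocnemius are the values above 0.

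The knockout effect was compared between muscles within 1 fit of the 18 libraries. No member's effect was called different (0 of 10 by edgeR, DESeq2 and limma voom alike, and 0 at an unadjusted edgeR p below 0.05), where 0.0703% of all genes were called. For Ciart, the soleus effect minus the gastrocnemius effect was 0.22 on the log2 scale (SE 0.25, 95% interval -0.30 to 0.74). For Hlf it was 0.24 (SE 0.22, -0.22 to 0.70) and for Per1 0.29 (SE 0.29, -0.32 to 0.90). These widths rest on treating the 18 libraries as independent, and would not hold if libraries 33 apart in the titles share a mouse. The call of Ciart and Hlf in the gastrocnemius alone does not show that the muscles differed.

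Between muscles, soleus had more Per3 and Clock and less Hlf and Tef than gastrocnemius, in controls and again in knockouts. In controls these were 4 of 10 members called, where 49.3% of all genes were called, and in knockouts 4 of 10, where 37.8% were. The members' share was thus near the background in each. The knockout and control libraries of each muscle also enter the knockout comparisons above.

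Per3, a Period gene with D-boxes in its window, had 64.2, 55.9, 52.6 and 82.6 CPM in soleus knockouts and 45.9, 43.2, 35.1 and 44.1 CPM in gastrocnemius knockouts. Controls had 52.9, 59.6, 63.5, 65.0 and 73.9 CPM in soleus and 32.5, 47.7, 32.4, 36.3 and 30.7 CPM in gastrocnemius. Every soleus library lay above every gastrocnemius library of its genotype. The log2 fold change was 0.60 in knockouts (SE 0.15, edgeR adjusted p = 0.00357) and 0.81 in controls (SE 0.13, adjusted p = 5.68e-05). Per3 lies inside the span of Camta1 on the same strand, with 0 shared exonic bases. Camta1 was also higher in soleus, at 84.1 ± 8.21 CPM in soleus controls and 29.3 ± 2.30 CPM in gastrocnemius controls (SD, n = 5 each; log2 fold change 1.52, SE 0.09, adjusted p = 1.50e-11), and intronic reads of Camta1 in the Per3 count were not tested.

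Hlf and Tef went the other way. For Hlf, the knockout values above gave a log2 fold change of -0.88 between soleus and gastrocnemius (SE 0.16, edgeR adjusted p = 3.01e-04) and the control values -1.12 (SE 0.15, adjusted p = 3.50e-06), with no overlap of the muscles in either genotype. Tef had 165, 147, 139 and 200 CPM in soleus knockouts and 273, 279, 275 and 269 CPM in gastrocnemius knockouts. In controls it had 164, 160, 166, 184 and 193 CPM in soleus and 257, 262, 254, 283 and 281 CPM in gastrocnemius. Its log2 fold changes were -0.75 in knockouts (SE 0.09, adjusted p = 8.26e-07) and -0.63 in controls (SE 0.08, adjusted p = 1.21e-06). Per3, Hlf and Tef were the 3 of 10 members whose muscles lay apart, in knockouts (32.4% of all genes) and in controls (36.7%).

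Dbp, the remaining PAR bZIP gene, had 41.8 to 68.8 CPM in soleus knockouts and 44.5 to 72.2 CPM in gastrocnemius knockouts. The log2 fold change was -0.21 in knockouts (SE 0.18, 95% interval -0.58 to 0.16) and -0.21 in controls (SE 0.16, -0.54 to 0.12). The exons of Dbp share 491 bases (16.67%) with Sphk2 on the other strand. Sphk2 was higher in soleus, with a log2 fold change of 0.34 in knockouts (SE 0.11, edgeR adjusted p = 0.0205) and 0.39 in controls (SE 0.10, adjusted p = 0.00267). With the strand setting not given, reads over the shared bases are uncertain, and their part in the Dbp count was not tested. Clock had the smallest called difference, 0.22 in knockouts (SE 0.08, edgeR adjusted p = 0.0452) and 0.24 in controls (SE 0.08, adjusted p = 0.0122), and its muscles overlapped in both. The call in knockouts was lost with DESeq2 (0.0551), with limma voom (0.0609), without the low-count filter (0.0557), with only the compared libraries (0.0943), and without any single knockout library other than soleus knockout 42 (0.0562 to 0.182). Control libraries, which also enter this fit, were not left out for it.

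Arntl, Per1, Per2, Nr1d1 and Ciart were not called between muscles with the libraries taken as independent. Their log2 fold changes lay between -0.27 and 0.24 in knockouts and between -0.26 and 0.02 in controls. Ciart had 11.4 ± 1.24 CPM in soleus controls and 11.2 ± 0.923 CPM in gastrocnemius controls (SD, n = 5 each), with a 95% interval for the log2 fold change of -0.32 to 0.36. With scaling by library totals alone, the median log2 fold change of all genes was 0.2651 in knockouts and 0.3466 in controls, against 0.0315 in knockouts and 0.0841 in controls with TMM. Called genes were then 6338 higher and 1753 lower in knockouts and 8384 higher and 2125 lower in controls, against 3560 and 3427 in knockouts and 5074 and 4048 in controls with TMM. Under that scaling Per3, Clock, Hlf and Tef kept their directions and their calls, and Ciart was also called higher in soleus knockouts (log2 fold change 0.47, edgeR adjusted p = 0.0348). Per1 was called lower in soleus controls when only the control libraries were fitted (-0.30, edgeR adjusted p = 0.00307).

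**Figure D4:**
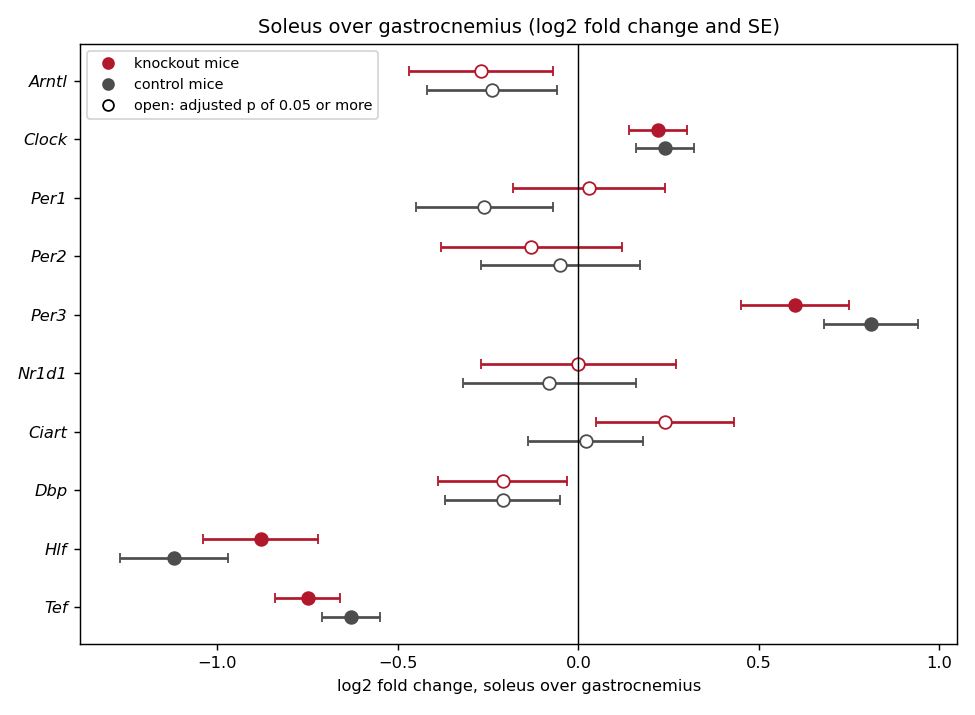
Log2 fold change of soleus over gastrocnemius (x axis) for the 10 clock genes, with the SE as bars, in knockout mice (upper mark of each pair) and control mice (lower mark); filled marks passed an adjusted p of 0.05. Per3 (0.60 and 0.81) and Clock (0.22 and 0.24) lie to the right of 0, and Hlf (-0.88 and -1.12) and Tef (-0.75 and -0.63) to the left.

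Among libraries of the same group, the members varied unequally. The within-group SD of log2(CPM + 0.5), pooled over the 4 groups, was 0.42 for Nr1d1, above that of 96.6% of all genes tested, and 0.35 for Per2 (92.8%). It was 0.31 for Per1, 0.30 for Arntl, 0.28 for Ciart, 0.26 for Dbp, 0.25 for Hlf and 0.23 for Per3. Tef (0.13) and Clock (0.12) lay below the median of all genes, 0.19. Nr1d1 was lowest in soleus control 36 (89.6 CPM, against 161 to 231 CPM in the other soleus controls) and in gastrocnemius control 3 (96.8 CPM, against 181 to 240 CPM). Per1 and Per2 were highest among their groups in soleus knockout 35 and gastrocnemius knockout 2, and Arntl was lowest in soleus knockout 42 (3.59 CPM) and gastrocnemius knockout 9 (5.39 CPM). Whether these pairs of libraries share a mouse is not stated.

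**Figure D5:**
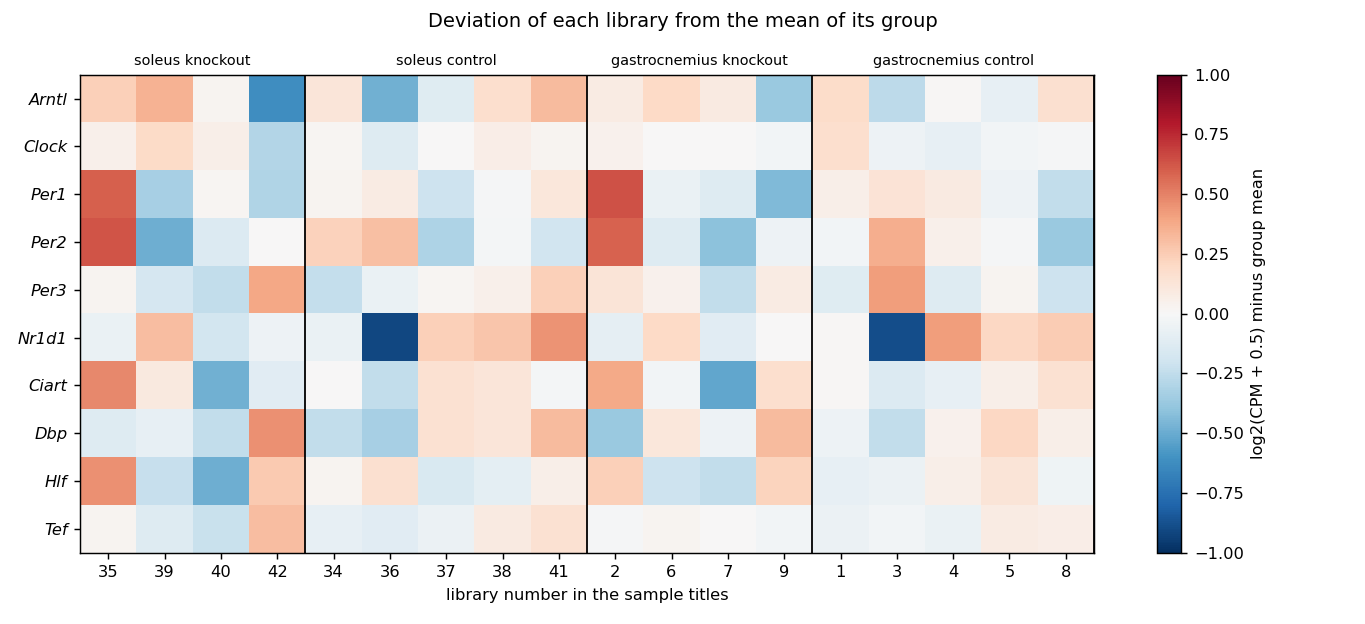
Deviation of each library (columns, numbered as in the titles) from the mean of its group for each clock gene (rows), in log2(CPM + 0.5), red above and blue below the group mean. The darkest blue cells are Nr1d1 in soleus control 36 and gastrocnemius control 3, and the darkest red cells are Per1 and Per2 in soleus knockout 35 and gastrocnemius knockout 2.

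Whether the other members varied with Arntl was asked within each muscle over 9 libraries, after subtracting each group's mean. Of 18 relations, none passed an exact two-sided permutation test within groups after Benjamini-Hochberg adjustment. Arntl and its partner Clock in soleus came closest (Pearson r = 0.92, exact permutation p = 0.00382, adjusted p = 0.0687; Spearman rho = 0.80, exact permutation p = 0.0191, adjusted p = 0.344). Without soleus knockout 42 and soleus control 36, r was 0.57. These were the libraries farthest from the muscle's median Arntl level, before group means were subtracted. In gastrocnemius the same pair had r = 0.49 (exact permutation p = 0.132, adjusted p = 0.592; rho = 0.68, p = 0.0399, adjusted p = 0.359) and r = 0.17 without knockout 9 and control 1. Arntl and Nr1d1, its repressor, had r = 0.64 in soleus (exact permutation p = 0.0455, adjusted p = 0.409; rho = 0.58, p = 0.12, adjusted p = 0.684) and 0.47 in gastrocnemius (p = 0.171, adjusted p = 0.615; rho = 0.25, p = 0.488, adjusted p = 0.948). Without the same libraries these were 0.58 and 0.83. Gastrocnemius control 3 stayed in, although its Arntl deviation from its group mean (-0.26 on the log2 scale) was larger than that of control 1 (0.18), which was left out.

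The genes outside the list that most resembled 3 members over the 18 libraries were found by Pearson r of log2(CPM + 0.5) after subtracting group means. For Arntl they were Slc41a3 (r = 0.86), Leo1 (0.85), Mtfr1l (0.82), Mrps15 (0.81) and Tmem268 (0.81). For Dbp they were Hoxa9 (0.91), Sema6c (0.91), Extl1, Inppl1 and Sesn2 (0.90 each). For Ciart they were Cnot1 (0.89), Pcnx (0.89), Gzmm (0.88), Slc38a3 (0.88) and Acacb (0.86). These values describe the libraries, which share depth and composition across genes, and carry no test.

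A list of 20 other clock components was tested as well. In the soleus 0 of the 20 were called with the knockout by edgeR, DESeq2 or limma voom, and 1 had an unadjusted edgeR p below 0.05. Between muscles, 0 of the 20 were higher and 4 lower in soleus knockouts, where 37.8% of all genes were called, and 2 were higher and 7 lower in soleus controls, where 49.3% were. Bhlhe41, a repressor that binds E-boxes, had a log2 fold change of -1.12 in knockouts (SE 0.21, edgeR adjusted p = 5.56e-04) and -1.21 in controls (SE 0.19, adjusted p = 6.57e-05), and Rora, a ROR activator, -1.19 in controls (SE 0.08, adjusted p = 2.20e-11).

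Among 11 genes described as under clock control, 1 was called higher and 2 lower in gastrocnemius knockouts. Of all genes, 1.77% were called higher and 2.01% lower. The 11 log2 fold changes were positive for 6 and negative for 5 (median 0.01). Myod1, the myogenic regulator, rose in gastrocnemius knockouts, to 28.6 ± 2.86 CPM against 18.4 ± 3.12 CPM in controls (log2 fold change 0.64, SE 0.12, edgeR adjusted p = 0.0105, and 0.354 in the fit of all 18 libraries). Usp2, a deubiquitinase, fell (log2 fold change -0.29, SE 0.07, adjusted p = 0.0375), as did Tcap, a Z-disc protein (-0.41, SE 0.09, adjusted p = 0.0263). Usp2 lost its call with library totals (0.0779), upper-quartile scaling (0.0535) and the fit of all 18 libraries (0.131), and without controls 1, 4 and 5 or knockouts 6, 7 and 9, each left out alone (up to 0.128). Tcap lost its call without controls 4, 5 and 8 or knockouts 6 and 7, each left out alone (up to 0.0994). None of the 11 was called in the soleus with the knockout by edgeR, DESeq2 or limma voom, and 1 had an unadjusted edgeR p below 0.05. Between muscles, 2 of the 11 were called higher and 2 lower in soleus knockouts, where 37.8% of all genes were called. In soleus controls 2 were higher and 4 lower, where 49.3% were called. The median log2 fold change was 0.11 in knockouts and 0.02 in controls, with 6 of 11 positive in each. The called genes with a log2 fold change of at least 1 in size were lower in soleus. Ucp3, a mitochondrial carrier, had -1.11 in knockouts (SE 0.31, adjusted p = 0.0101) and -1.19 in controls (SE 0.28, adjusted p = 0.00227), and Myod1 -1.29 in controls (SE 0.34, adjusted p = 0.00502).

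Per1 and Per2 also answer to glucocorticoids, and 8 other glucocorticoid-responsive genes were listed for that reason. All 8 had negative log2 fold changes in gastrocnemius knockouts (median -0.38), where 1 fell, Klf9, a zinc finger transcription factor (191 ± 15.1 CPM in knockouts, 230 ± 11.9 CPM in controls; -0.26, SE 0.07, edgeR adjusted p = 0.0479). That call was lost with library totals (0.105), upper-quartile scaling (0.0681) and the fit of all 18 libraries (0.0673), and without any single library other than knockout 2 and control 3 (adjusted p up to 0.134). Of all genes, 2.01% were called lower in gastrocnemius knockouts. In the soleus, 7 of 8 were negative (median -0.39), 0 were called by edgeR, DESeq2 or limma voom, and 1 had an unadjusted edgeR p below 0.05. The summed level of the 8 genes was 1815 CPM in gastrocnemius knockout 2, against 799 to 1064 CPM in the other 3 knockouts and 1300 to 1886 CPM in controls. It was 1285 CPM in soleus knockout 35, against 646 to 821 CPM in the other 3 knockouts and 873 to 1231 CPM in controls. The libraries with the highest Per1 and Per2 among knockouts thus also had the highest summed level of these genes, and its part in the Per1, Per2 and Ciart values was not tested. Between muscles, 0 of the 8 were called higher and 2 lower in soleus knockouts, where 37.8% of all genes were called. In soleus controls 0 were higher and 4 lower, where 49.3% were called. Tsc22d3 had -1.38 in knockouts (SE 0.28, adjusted p = 0.00105) and -1.62 in controls (SE 0.25, adjusted p = 6.55e-05), and Sgk1 -1.02 in controls (SE 0.25, adjusted p = 0.00325).

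None of 7 immediate-early genes, which answer to handling and dissection, was called with the knockout in either muscle by edgeR, DESeq2 or limma voom (1 with an unadjusted edgeR p below 0.05 in each). Their median log2 fold change was 0.44 in gastrocnemius knockouts (5 of 7 positive) and 0.11 in soleus knockouts (4 of 7 positive). The summed level was 468 CPM in soleus control 34, against 149 to 183 CPM in the other soleus controls. A difference in handling was not tested. Between muscles, 1 of the 7 was called in each genotype, where 37.8% of all genes were called in knockouts and 49.3% in controls. This was the nuclear receptor gene Nr4a1, with a log2 fold change of -1.41 in knockouts (SE 0.29, edgeR adjusted p = 0.00128) and -1.31 in controls (SE 0.26, adjusted p = 6.38e-04). The list as a whole was not lower in soleus. Its median was 0.03 in knockouts (4 of 7 positive) and 0.30 in controls (5 of 7 positive).

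Marker lists of fibre types and other cell types were compared between knockouts and controls as well, and the markers named here were chosen after their values were seen. Of all genes, 0.0553% were called with the knockout in soleus and 3.78% in gastrocnemius. The summed level of the 7 slow-fibre markers was 11914 to 17747 CPM in soleus knockouts and 18180 to 22789 CPM in soleus controls, and 386 to 864 CPM in gastrocnemius knockouts and 850 to 1338 CPM in gastrocnemius controls, where 1 of 7, Myl2, was called lower (log2 fold change -0.95, SE 0.16, edgeR adjusted p = 0.0113, and 0.0588 without knockout 7). In soleus 0 of the 7 were called by edgeR (7 with an unadjusted p below 0.05; 2 called by DESeq2, 0 by limma voom). The 7 fast-fibre markers summed to 122609 to 134304 CPM in gastrocnemius knockouts and 127539 to 152019 CPM in controls, with 7 of 7 log2 fold changes negative and 0 called by edgeR (4 with an unadjusted p below 0.05; 2 called by DESeq2, 1 by limma voom). The 4 lymphocyte markers summed to 8.82 to 11.0 CPM in gastrocnemius knockouts and 4.04 to 6.13 CPM in controls. Of the 2 that passed the filter on low counts, 1, Ptprc, was called higher (log2 fold change 0.99, SE 0.15, edgeR adjusted p = 0.00329). The 5 fibroblast markers summed to 2453 to 4051 CPM in gastrocnemius knockouts and 1819 to 3045 CPM in controls, and the 5 macrophage markers to 74.6 to 125 CPM and 63.4 to 85.2 CPM, with 0 of 5 called in each list by edgeR (3 and 4 with an unadjusted p below 0.05; 1 and 2 called by DESeq2; 0 by limma voom). No marker of these lists was at 0 over a group. The part of these lists in the levels of Ciart and Hlf was not tested.

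Of the 3 satellite cell markers, 1 was called higher and 1 lower in gastrocnemius knockouts, where 1.77% of all genes were called higher and 2.01% lower. Pax7, a transcription factor of muscle stem cells, had 6.16 ± 1.35 CPM in knockouts (SD, n = 4) and 3.40 ± 0.741 CPM in controls (SD, n = 5; log2 fold change 0.85, SE 0.18, edgeR adjusted p = 0.0219). Cdh15, a cadherin of the myogenic lineage, had 16.3 to 20.5 CPM in knockouts and 21.8 to 25.3 CPM in controls, with no overlap (log2 fold change -0.32, SE 0.08, edgeR adjusted p = 0.0446). Pax7 lost its call in the fit of all 18 libraries (0.137) and without 6 of the 9 libraries, each left out alone (up to 0.0775). Cdh15 lost its call with library totals (0.121), with upper-quartile scaling (0.0565) and without any single library (up to 0.128). The 3 markers summed to 22.0 to 31.7 CPM in gastrocnemius knockouts and 25.9 to 30.1 CPM in controls, and in soleus 0 of 3 were called by edgeR, DESeq2 or limma voom, with 0 at an unadjusted edgeR p below 0.05. The part of these cells in the Myod1, Ciart and Hlf values was not tested. The 6 lists for skeletal muscle, endothelium, Schwann cells, adipocytes, smooth muscle and red blood cells had 0 of 28 markers called in either muscle by edgeR, DESeq2 or limma voom (4 with an unadjusted edgeR p below 0.05 in soleus and 2 in gastrocnemius).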

How the data were processed

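The deposited files give, for each of 18 libraries, a raw count per gene, and the authors' CPM and RPKM, which scale the counts to the library total and, for RPKM, to gene length, per the file headers. The submitters' processing notes name bcl2fastq, STAR 2.5.1a, Subread, featureCounts 1.4.6-p5 and GRCm38; these sources give neither the strand setting nor the handling of reads shared by genes. The deposited CPM and RPKM values were recovered from the counts and gene lengths to within 4.9e-10, so only the counts were analysed. Symbols were given for 40254 of 41388 genes (97.3%). Library totals were 39.0 to 78.2 M. Replicates of a group differed by more than sampling noise (chi-square per gene of at least 13.57), and none was merged.

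Counts were tested with edgeR 4.0.16 in R 4.3.3 (quasi-likelihood F-test, TMM scaling, minimum count of 10 and minimum total of 15 in filterByExpr, Benjamini-Hochberg adjustment over all genes tested, threshold 0.05). Each knockout comparison used the 9 libraries of its muscle; comparisons between muscles and the difference of the knockout effects used all 18 in 4 groups. SEs are the fold change over the root of F, and 95% intervals use the moderated degrees of freedom. CPM values in the text are TMM-scaled, computed here from the counts; log2 values for spread and correlation add 0.5 CPM. Alternatives were DESeq2 1.42.0, limma voom (limma 3.58.1), other scalings, no filter, other sets of libraries, leaving out each library and a block of libraries paired by title number, added after seeing the data. The fits were run on simulated data in which genes were changed by larger folds than those of the members with the knockout. Effects as small as those were not simulated. Motifs were searched in RefSeq promoter windows of 300 bases.

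The members and lists were chosen with earlier results of these data known. All members are named; genes of the lists of other clock components, clock-controlled, glucocorticoid-responsive and immediate-early genes are named where called with the knockout, or, between muscles, where called with a log2 fold change of at least 1 in size. Marker lists are given by counts and sums, with the markers called with the knockout named. Counting error is smaller than the spread between libraries at the members' counts, except for Clock in gastrocnemius knockouts. There the libraries had 1378 to 1748 reads, and the SD was only 2.10% of the mean CPM. The number of libraries limits the precision. The gastrocnemius knockout result of the list of other clock components is not reported here.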

Additional observations from a re-analysis of the deposited data

Results flagged for a closer look

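Of 40 sets of values (10 clock genes in 4 groups), 1 held a library far from the others of its group. Clock had 43.4 CPM in gastrocnemius control 1, where the next highest control had 38.1 CPM, a gap of 0.732 of the group's range against a critical value of 0.71. Chance alone sets such a library apart in about 1 in 20 groups. Without control 1 the knockout effect on Clock in gastrocnemius was -0.13 on the log2 scale (edgeR adjusted p = 0.34). No difference of the knockout effect between muscles passed for a clock gene.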

How the results depend on the processing

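The 2 gastrocnemius calls were 1 (Ciart) in the fit of all 18 libraries and 1 to 3 without each library in turn, and the soleus knockout count of 0 was 1 (Ciart) with DESeq2 and 0 to 1 without each library. The 4 calls between muscles were 4 in controls without each control library and 3 to 4 in knockouts without each knockout library. The difference of the knockout effects gave 0 in every setting run. Over all genes, calls numbered 619 in gastrocnemius knockouts (1232 with DESeq2, 206 without control 5 to 1080 without knockout 2), 10 in soleus knockouts (166 with DESeq2, 28 with all 18 libraries, 48 without the filter, 3 without control 37 to 66 without knockout 35) and 13 for the difference (54 with DESeq2, 2 without soleus control 37 to 23 without gastrocnemius knockout 2). Genes with an unadjusted edgeR p below 0.05 numbered 3057 of 16393 in gastrocnemius knockouts, 1481 of 18087 in soleus knockouts and 999 of 18494 for the difference.

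No paired analysis was possible for knockout against control because those groups share no replicate numbers in the titles. Between muscles, the title numbers pair each of the 9 soleus libraries with a gastrocnemius library of its genotype at an offset of 33, which no label explains. Deviations from the group means, compared across 18494 genes, gave r of 0.0466 to 0.299 within these pairs, and each soleus library had its highest r, among gastrocnemius libraries of its genotype, with the library 33 below it; this is a hint from the data, not the design. A fit with these pairs as a replicate block was chosen after seeing the data. It called 7 members between muscles in controls, adding Arntl (adjusted p = 0.0426), Per1 (0.0115) and Dbp (0.0241), and 5 in knockouts, adding Arntl (0.0426), while Per3, Clock, Hlf and Tef kept their calls. Of all 18494 genes, the same fit called 9545 between muscles in controls and 7522 in knockouts. The difference of the knockout effects still gave 0 members (1 with an unadjusted p below 0.05, Per1), with narrower 95% intervals of -0.07 to 0.51 for Ciart, -0.05 to 0.48 for Hlf and 0.04 to 0.55 for Per1 (adjusted p = 0.622), and 32 calls over all genes. The block turned the sign of Nr1d1 between muscles in knockouts (-0.00) and of Dbp for the difference (0.01).

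No fold change that turned sign was called on either side. With library totals, soleus over gastrocnemius in controls was 0.02 for Arntl, 0.00 for Per1, 0.21 for Per2, 0.18 for Nr1d1 and 0.06 for Dbp, and in knockouts 0.10 for Per2 and 0.03 for Dbp. Ciart in controls was -0.02 with DESeq2 and -0.02 with only the compared libraries, and Nr1d1 in knockouts -0.00 with DESeq2 and with limma voom. The difference of the knockout effects was 0.00 for Arntl, 0.02 for Clock and 0.03 for Dbp with DESeq2, and 0.00 for Arntl and 0.01 for Dbp with limma voom. Without each library in turn, Per3 in soleus knockouts ran from -0.13 to 0.11. Between muscles only libraries of the genotype compared were left out. In controls, Per2 ran from -0.14 to 0.05, Nr1d1 from -0.25 to 0.09 and Ciart from -0.02 to 0.09, and in knockouts Per1 from -0.22 to 0.29, Per2 from -0.39 to 0.10 and Nr1d1 from -0.11 to 0.07. The difference of the knockout effects ran from -0.16 to 0.15 for Arntl, -0.09 to 0.07 for Clock, -0.34 to 0.16 for Per2, -0.09 to 0.25 for Nr1d1 and -0.18 to 0.11 for Dbp. Without the 2 libraries farthest from the muscle's median Arntl level, the correlation of Arntl in gastrocnemius was -0.47 with Per1, 0.56 with Dbp and 0.24 with Ciart, and in soleus 0.04 with Per2, 0.44 with Per3, 0.38 with Dbp, 0.41 with Hlf and 0.68 with Tef, each of the other sign than over 9 libraries. The cause of these changes was not tested.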
